A study of Saccharomyces cerevisiae with 4 samples.

Results

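The transcripts followed here are those of 35 yeast genes for the synthesis, storage and uptake of sterols. They were chosen by name: 9 genes of the mevalonate steps, 14 of the steps from farnesyl diphosphate to ergosterol, 2 electron carriers of sterol enzymes, 2 sterol acyltransferases, 4 regulators and 4 genes for sterol uptake and the cell wall that are known for anaerobic growth. All 35 had 1 probe each among the 6388 gene probes of the array. The cells were Saccharomyces cerevisiae BY4742, a haploid laboratory strain, carrying YCpLac111, a centromeric LEU2 plasmid, and were otherwise wild type. They grew in synthetic complete medium with glucose for a few doublings, with phosphate at 10 mM, called standard phosphate, or at 75 uM, called low phosphate, a condition the study used as an environmental perturbation that activates the transcription factor Pho4. Each group holds 2 spotted oligonucleotide arrays, a and b. Every array compared its sample with a common reference RNA pool of wild-type BY4742, for which the labels give neither a plasmid nor a treatment. The sample carried Cy3 on the a arrays and Cy5 on the b arrays, so dye and replicate cannot be told apart within a group. Whether a and b of a group came from separate cultures is not settled, as described below. The sample titles also hold a number, 2 for standard and 1 for low phosphate. The titles do not say what it means, and it cannot be told apart from the phosphate level.

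Yeast makes ergosterol, the sterol of its membranes, from acetyl-CoA. The mevalonate steps build farnesyl diphosphate, which also feeds other isoprenoids, and the late steps turn it into squalene, lanosterol and at last ergosterol. Several late enzymes need molecular oxygen and heme, and surplus sterol is stored as steryl esters in lipid droplets. The transcription factors Upc2 and Ecm22 raise the expression of many of these genes when sterol is short, and cells without oxygen take sterol up from the medium instead.

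All values are log2 ratios of sample over reference after normexp background correction and loess, and a difference is the mean of both low phosphate arrays minus the mean of both standard phosphate arrays, with the standard error (SE) of the limma fit. Gene spots had a median sample signal between 254 and 383, and the median background lay between 41 and 49. Ratios spread most widely on low phosphate b, with an SD of 0.599 over all probes, where the other arrays had 0.197 to 0.27. A list of 12 environmental stress genes had medians of -0.32 and 0.10 on standard phosphate a and b, and of 0.94 and 2.59 on low phosphate a and b. The low phosphate arrays therefore differed from each other in stress transcripts, and the part of this in the sterol genes was not tested. PDR11, which encodes an ABC transporter for sterol uptake, was not above background in either channel on any array. It is named here without a ratio, and the counts below are over the other 34 genes.

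Differences of the sterol genes between low and standard phosphate were small. In low phosphate 21 of 34 had a higher mean and 13 a lower mean, against 50.03% of all probes with a higher mean. The median difference was 0.08 over the 34 genes and 0.0001 over all probes. None passed an adjusted p of 0.05 (limma, Benjamini-Hochberg over all probes), where 1 probe of all, that of LEU1, did (0.0157%), and the lowest adjusted p of a sterol gene was 0.42. At an unadjusted p of 0.05, 4 were higher, ERG9, ARE2, ERG11 and HMG2, where 6.34% of all probes were higher, and 0 were lower, where 5.13% were. Print-tip loess in place of loess over the whole array gave 6 higher and 1 lower, where 11.04% of all probes passed in either direction. None differed by 1.7-fold, the threshold of the study, and so none passed it together with an unadjusted p of 0.05, as 3.07% of all probes did. Both low phosphate arrays lay above both standard phosphate arrays for 14 genes and below them for 7, against 26.5% and 26.8% of all probes. With 2 against 2 arrays the smallest two-sided p of an exact permutation test is 0.333. These counts depend on the array that is left out. Without low phosphate a, 9 genes passed the adjusted p (limma): ERG28, SUT1, TIR1, ERG25, ERG9, ARE2, IDI1, ERG20 and HMG1. There low phosphate b, the array with the widest ratios, stands alone and is assumed to vary like the standard phosphate arrays, and 2030 of all probes passed as well.

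**Figure D1:**
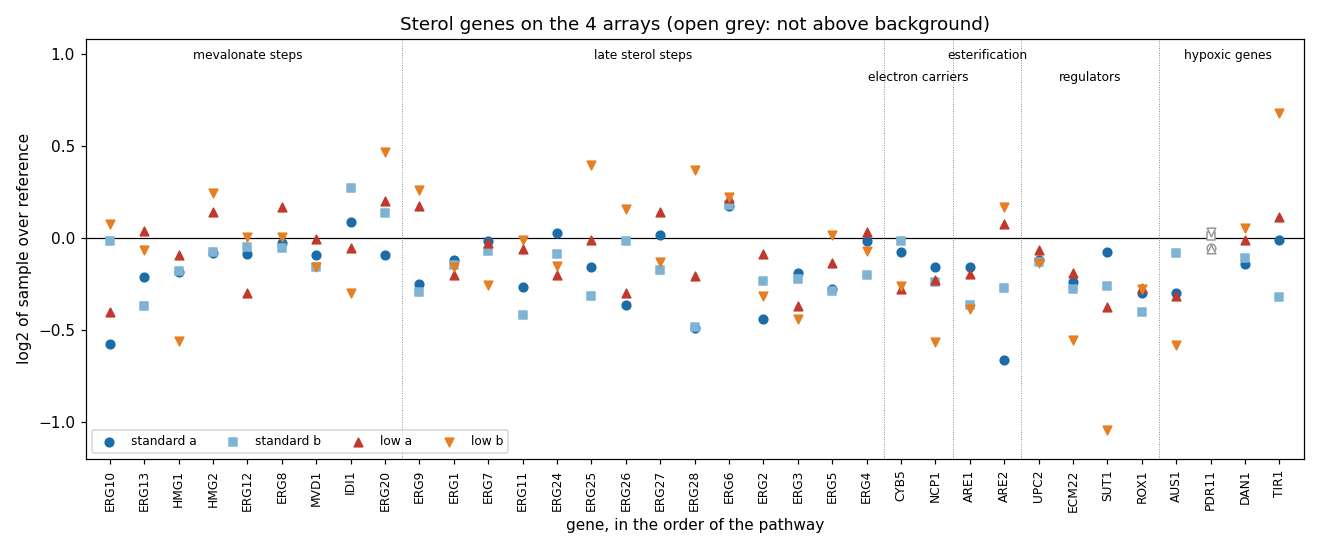
Log2 ratio of sample over reference (vertical axis) of each sterol gene (horizontal axis, in pathway order) on the 4 arrays, with circles and squares for standard phosphate a and b and upward and downward triangles for low phosphate a and b. Most standard phosphate points lie below 0, low phosphate b holds the extreme values of SUT1 (-1.04) and TIR1 (0.68), and the open grey points are PDR11, which was not above background.

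The 9 genes of the mevalonate steps had a median difference of 0.13, and 6 of them had a higher mean in low phosphate. Their median ratio was -0.09 and -0.06 on standard phosphate a and b, and -0.0064 and 0.0024 on low phosphate a and b. The median of the list thus lay close to the reference in both conditions, while single genes lay further from it. Below the reference on both arrays were 7 of the 9 in standard phosphate and 3 in low phosphate. Of all probes 33.6% and 35.4% were. Within the list the genes had differences of both signs. ERG13, the HMG-CoA synthase, had ratios of 0.03 and -0.07 on the low phosphate arrays against -0.21 and -0.37 on those of standard phosphate, a difference of 0.27 (SE 0.11, unadjusted p = 0.064). The arrays of the groups did not overlap. ERG20, which makes farnesyl diphosphate, was higher on both low phosphate arrays as well. Its ratios were -0.10 and 0.13 with standard phosphate and 0.20 and 0.46 with low phosphate, a difference of 0.31 (SE 0.15, unadjusted p = 0.11). It was 0.15 with print-tip loess, 0.20 with scaling between arrays, 0.18 with the deposited ratios and 0.18 without low phosphate b. Low phosphate b was the highest of the 4 arrays, and low phosphate a lay only just above standard phosphate b.

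IDI1 was lower in low phosphate. It encodes the isomerase that turns isopentenyl diphosphate into dimethylallyl diphosphate, the step directly before Erg20. Its ratios were 0.08 and 0.27 on the standard phosphate arrays and -0.05 and -0.30 on those of low phosphate. The difference was -0.35 (SE 0.14, unadjusted p = 0.063), with both low phosphate arrays below both standard phosphate arrays, and was -0.23 without low phosphate b. Neighbouring enzymes of the route, Idi1 and Erg20, thus had differences of opposite sign. For ERG10, the acetoacetyl-CoA thiolase at the start of the route, the arrays within a group were further apart than the groups, with -0.40 and 0.08 on the low phosphate arrays against -0.58 and -0.02 on those of standard phosphate. Both b arrays were high and both a arrays low, and its difference of 0.13 had an SE of 0.27. The kinases ERG12 (-0.08, SE 0.14) and ERG8 (0.13, SE 0.10) and the decarboxylase MVD1 (0.04, SE 0.10), which follow the reductase, had differences of about their SE or less.

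HMG1 (YML075C) and HMG2 (YLR450W) encode the isozymes of HMG-CoA reductase, the regulated step of the mevalonate route. HMG1 had ratios of -0.19 and -0.18 with standard phosphate and -0.09 and -0.56 with low phosphate. HMG2 had -0.08 and -0.08 on the standard phosphate arrays and 0.14 and 0.24 on those of low phosphate. HMG2 was thus above its standard phosphate level on both low phosphate arrays, by 0.27 (SE 0.09, unadjusted p = 0.041, adjusted p = 0.42, limma), whereas the low phosphate arrays of HMG1 lay on either side of the standard phosphate arrays, with a difference of -0.15 (SE 0.19). The difference of HMG2 minus that of HMG1 was 0.42. The log2 ratio of HMG2 minus that of HMG1 was 0.24 and 0.81 on the low phosphate arrays against 0.10 and 0.10 on those of standard phosphate, which gives the smallest p of the exact test, 0.333, and most of it came from low phosphate b. The unadjusted p of HMG2 passed 0.05 in 6 of 15 alternative settings, and was 0.17 without either standard phosphate array and 0.10 without low phosphate b.

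**Figure D2:**
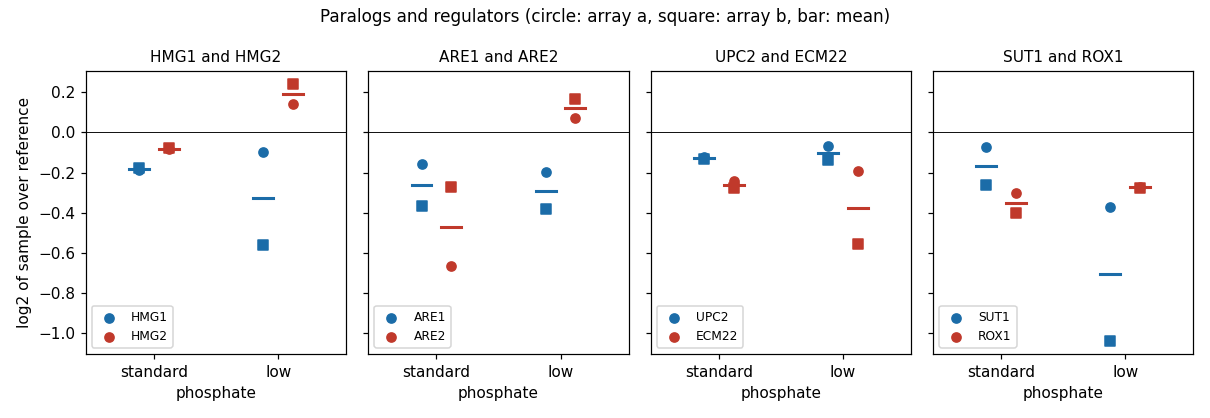
Log2 ratio of sample over reference (vertical axis) of paired genes in standard and low phosphate, with circles for array a, squares for array b and bars for the mean of both. HMG2 and ARE2 lie higher on both low phosphate arrays than on both standard phosphate arrays, by 0.27 and 0.59, and HMG1, ARE1, UPC2 and ECM22 overlap between the conditions.

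The 14 genes of the late steps had a median difference of 0.11, with 10 higher and 4 lower means in low phosphate. Their median ratio was -0.18 and -0.21 on the standard phosphate arrays and -0.07 and -0.04 on the low phosphate arrays. ERG9 (YHR190W) had the lowest unadjusted p of the 34 genes. It encodes squalene synthase, which commits farnesyl diphosphate to sterols. The ratios were -0.25 and -0.29 with standard phosphate and 0.17 and 0.26 with low phosphate, so the gene crossed the level of the reference. The difference of 0.49 (SE 0.09, 95% confidence interval 0.23 to 0.74) is 1.40-fold and had an unadjusted p of 0.0060 and an adjusted p of 0.42 (limma). It passed an unadjusted p of 0.05 in 12 of 15 alternative settings, and its p was 0.058 without standard phosphate b. A total of 92.5% of all probes had a lower difference than ERG9, so that a difference of this size was not rare on these arrays.

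The enzymes of the steps directly after Erg9 had smaller differences or differences of the opposite sign. ERG1, the squalene epoxidase, had ratios of -0.12 and -0.15 on the standard phosphate arrays and -0.20 and -0.16 on those of low phosphate. Its difference was -0.05 (SE 0.09, 95% confidence interval -0.29 to 0.19). ERG7, the lanosterol synthase, had a difference of -0.10 (SE 0.12). ERG11 (YHR007C), the lanosterol demethylase and the target of azole drugs, was higher on both low phosphate arrays. It had -0.06 and -0.01 on the low phosphate arrays against -0.27 and -0.42 on those of standard phosphate, a difference of 0.31 (SE 0.10, unadjusted p = 0.038, adjusted p = 0.42, limma). This p passed 0.05 in 5 of 15 alternative settings, and was 0.20 without standard phosphate b, 0.081 without standard phosphate a and 0.061 without low phosphate b. ERG24, the reductase that acts after Erg11, had both low phosphate arrays below both standard phosphate arrays and a difference of -0.15 (SE 0.10).

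The methyl groups next to the hydroxyl group of the sterol ring are removed by Erg25, Erg26 and Erg27 on the scaffold protein Erg28. ERG25, the oxidase, had ratios of -0.16 and -0.31 with standard phosphate and -0.01 and 0.39 with low phosphate. Its difference was 0.43 (SE 0.17, unadjusted p = 0.070), and 0.14 (unadjusted p = 0.20) with print-tip loess. ERG28 had -0.49 and -0.48 on the standard phosphate arrays and -0.21 and 0.37 on those of low phosphate, a difference of 0.56 (SE 0.22, unadjusted p = 0.063). For both genes the groups did not overlap, and low phosphate b lay further above the standard phosphate arrays than low phosphate a did. Without low phosphate b the differences were 0.23 for ERG25 and 0.28 for ERG28. ERG26, the dehydrogenase, had -0.30 and 0.16 on the low phosphate arrays against -0.37 and -0.02 on those of standard phosphate, a difference of 0.12 (SE 0.22), and its b arrays were high in both groups. ERG27, the keto reductase, had a difference of 0.08 (SE 0.15). The oxidase and the scaffold were thus higher on both low phosphate arrays, and for the dehydrogenase and the keto reductase the groups overlapped.

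The last enzymes of the route had differences between -0.20 and 0.22. ERG6, the methyltransferase that gives ergosterol its side chain methyl group, differed little among the arrays. It had 0.17 and 0.18 with standard phosphate and 0.21 and 0.22 with low phosphate, above the reference on every array, with a difference of 0.04 (SE 0.08). ERG3, a sterol desaturase, was lower on both low phosphate arrays. Its ratios were -0.19 and -0.22 on the standard phosphate arrays and -0.37 and -0.44 on those of low phosphate, a difference of -0.20 (SE 0.09, unadjusted p = 0.090). ERG5, the desaturase of the side chain, had the opposite sign at 0.22 (SE 0.10, unadjusted p = 0.092), and its groups did not overlap either. The isomerase ERG2 (0.14, SE 0.14) and the final reductase ERG4 (0.09, SE 0.11) overlapped between the groups.

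CYB5 and NCP1 hand electrons to the oxygen-requiring enzymes of the late route, Cyb5 to desaturases and oxidases and Ncp1 to Erg11 and Erg5 among others. Both had lower means in low phosphate. The oxygen-requiring enzymes had differences of both signs, higher for ERG11, ERG25 and ERG5 and lower for ERG1 and ERG3. The small difference of ERG1 changed sign in 3 of 15 alternative settings, among them print-tip loess (0.18) and the deposited ratios (0.16). CYB5 had ratios of -0.28 and -0.26 on the low phosphate arrays against -0.08 and -0.02 on those of standard phosphate, a difference of -0.22 (SE 0.09, unadjusted p = 0.063) with no overlap, which was -0.09 with median centring. NCP1 had -0.16 and -0.24 with standard phosphate and -0.23 and -0.57 with low phosphate. Its difference of -0.20 (SE 0.15) rested on low phosphate b, and low phosphate a lay within the standard phosphate values.

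**Figure D3:**
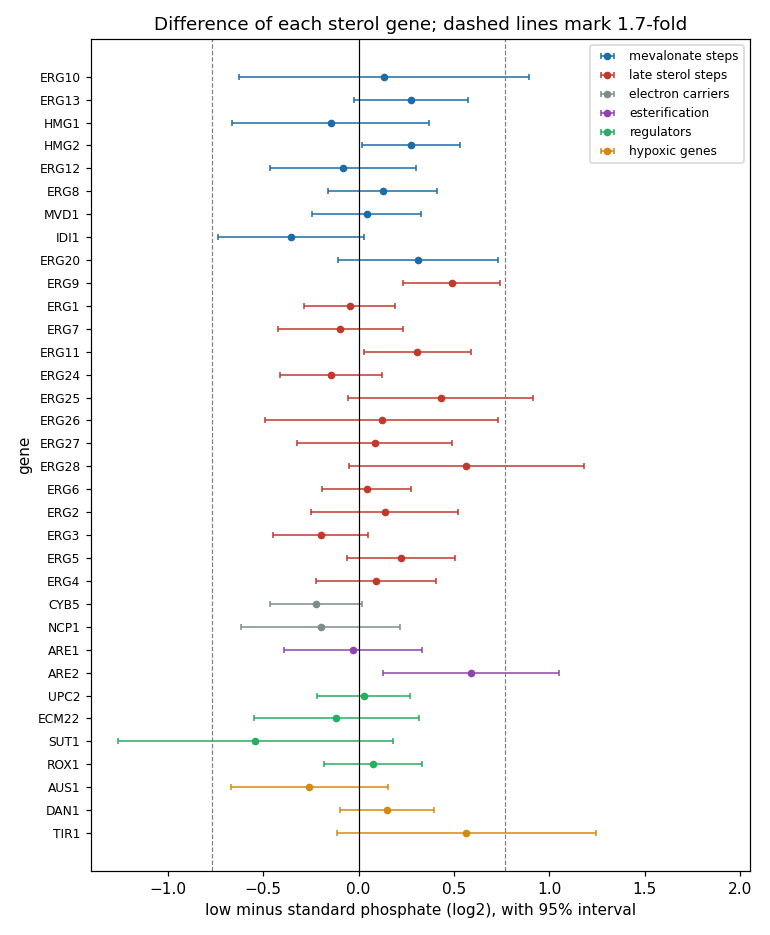
Difference of low minus standard phosphate (horizontal axis, log2) of each of the 34 sterol genes above background (vertical axis, coloured by list), with the 95% confidence interval of the limma fit as the horizontal bar. The intervals of ERG9, ARE2, ERG11 and HMG2 leave out 0, and those of 6 genes reach past 1.7-fold (dashed lines).

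Esterification is done by Are1 and Are2, a pair of acyl-CoA sterol acyltransferases. ARE2 (YNR019W) was higher in low phosphate. Its ratios were -0.67 and -0.27 on the standard phosphate arrays and 0.07 and 0.17 on those of low phosphate. Both low phosphate arrays lay above both standard phosphate arrays, by 0.59 on average (SE 0.17, 95% confidence interval 0.13 to 1.05), which is 1.50-fold, with an unadjusted p of 0.024 and an adjusted p of 0.42 (limma). The probe was dim, with a sample signal of 71.8 to 125 across the arrays, and a background correction without an offset raised the difference to 1.16. Its unadjusted p passed 0.05 in 14 of 15 alternative settings and was 0.084 without standard phosphate a. ARE1 had -0.20 and -0.38 on the low phosphate arrays against -0.16 and -0.37 on those of standard phosphate, with a difference of -0.03 (SE 0.13). The ratio of ARE2 minus that of ARE1 was -0.51 and 0.09 with standard phosphate and 0.27 and 0.55 with low phosphate. The differences of the paralogs were 0.62 apart, and the exact test of it gives its smallest p, 0.333.

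Of the regulators, UPC2 and ECM22 encode related zinc cluster activators of the ERG genes. UPC2 had -0.12 and -0.13 on the standard phosphate arrays and -0.07 and -0.14 on those of low phosphate, a difference of 0.03 (SE 0.09). ECM22 had -0.19 and -0.56 on the low phosphate arrays against -0.24 and -0.28 on those of standard phosphate, a difference of -0.12 (SE 0.15). Neither paralog separated the groups, and the difference between their differences was -0.14 (exact permutation test, two-sided p = 0.667). ROX1, the heme-dependent repressor of hypoxic genes, was below the reference on every array, with -0.30 and -0.40 with standard phosphate and -0.27 and -0.28 with low phosphate, a difference of 0.08 (SE 0.09). SUT1 (YGL162W), a zinc cluster protein that promotes sterol uptake, was below its standard phosphate level on both low phosphate arrays. Its ratios were -0.07 and -0.26 on the standard phosphate arrays and -0.37 and -1.04 on those of low phosphate, a difference of -0.54 (SE 0.26, unadjusted p = 0.11) that was -0.28 with scaling between arrays. The groups did not overlap, but the value ran from -0.21 on low phosphate a to -0.87 on low phosphate b against the standard phosphate mean.

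The genes for uptake and the anaerobic cell wall had differences of both signs. AUS1, an ABC transporter for sterol uptake, had -0.32 and -0.58 on the low phosphate arrays against -0.30 and -0.08 on those of standard phosphate, a difference of -0.26 (SE 0.15, unadjusted p = 0.16) that was -0.14 with scaling between arrays and -0.13 without low phosphate b. Its partner PDR11 was not above background. The mannoprotein genes DAN1 and TIR1, which are known to be expressed without oxygen, both had higher values on the low phosphate arrays. DAN1 had -0.14 and -0.11 with standard phosphate and -0.01 and 0.05 with low phosphate, a difference of 0.15 (SE 0.09). Its probe was dim, with a sample signal of 73.4 to 149 across the arrays, and the difference was 0.31 without an offset. TIR1 had -0.01 and -0.32 on the standard phosphate arrays and 0.11 and 0.68 on those of low phosphate, a difference of 0.56 (SE 0.24, unadjusted p = 0.082). This difference was 0.20 (unadjusted p = 0.26) with print-tip loess and 0.31 (unadjusted p = 0.29) with loess on the spike-in spots. Most of it came from low phosphate b, which was 0.85 above the standard phosphate mean, against 0.28 for low phosphate a.

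**Figure D4:**
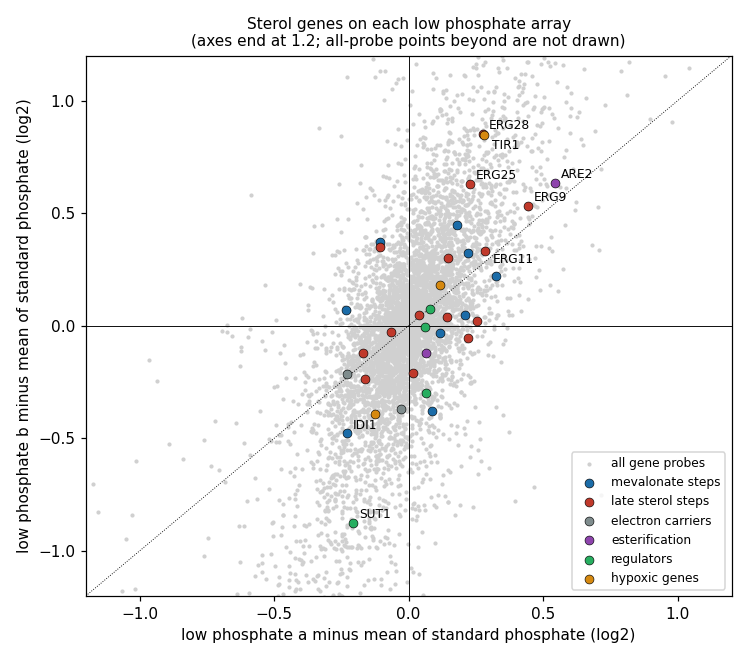
Log2 ratio on low phosphate a (horizontal axis) and low phosphate b (vertical axis), each minus the mean of the standard phosphate arrays, for all gene probes (grey) and for the 34 sterol genes above background (coloured by list, some named). ERG9 and ARE2 lie near the dotted line of equal values, at 0.44 and 0.53 for ERG9, and ERG28, TIR1, ERG25 and SUT1 lie further from 0 on array b than on array a.

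The low phosphate arrays were also set separately against the mean of standard phosphate. On low phosphate a 23 of 34 sterol genes lay above that mean, with a median of 0.08, and on low phosphate b 19 of 34 did, with a median of 0.04. ERG9 (0.44 and 0.53), ARE2 (0.54 and 0.64) and ERG11 (0.28 and 0.33) had similar values on both arrays. ERG28 (0.28 and 0.85), TIR1 (0.28 and 0.85), ERG25 (0.23 and 0.63) and SUT1 (-0.21 and -0.87) were more than 2 times further from the standard phosphate mean on low phosphate b. So were others, such as ERG20 (0.18 and 0.45), IDI1 (-0.23 and -0.48) and AUS1 (-0.13 and -0.39). ERG8 (0.21 and 0.05) and ERG2 (0.25 and 0.02) lay further from it on low phosphate a. Low phosphate b had the widest ratios over all probes (SD 0.599). These genes were chosen here after their values were seen.

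The reference, RNA of wild-type cells, gave a further comparison. In standard phosphate, 29 of 34 sterol genes were below the reference on both arrays, where 33.6% of all probes were. In low phosphate 17 of 34 were, where 35.4% of all probes were. None passed an adjusted p of 0.05 against the reference in standard phosphate (0.0783% of all probes did) or in low phosphate (0.297% did) by limma. These counts depended on which low phosphate array was left out. The share of all probes was not counted for those fits, so their counts are not given. At an unadjusted p of 0.05 (limma), 10 sterol genes were lower than the reference in standard phosphate and 9 in low phosphate. Of all probes 4.3% and 11.4% were. In the other direction, 1 was higher than the reference in standard phosphate and 4 in low phosphate, where 437 and 963 of the 6388 probes were. Only ERG6 and IDI1 lay above the reference on both standard phosphate arrays. The reference is a single RNA pool whose own spread does not enter these tests, and the labels name no phosphate level and no plasmid for its cells.

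The intervals set a limit on what these arrays could show. The 95% confidence interval of a difference was 0.24 to 0.76 to either side, with a median of 0.345. In case arrays a and b of a group came from the same culture, the intervals cover technical spread only. They then set no limit on a difference between cultures. For 28 of the 34 genes the interval lay within 1.7-fold in both directions. The other 6, ERG10, ERG25, ERG28, ARE2, SUT1 and TIR1, could not be told from genes with a difference of that size. Spots of the same probe were closer than arrays, with a median gap of 0.04 and a largest gap of 0.16.

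Other genes around the route were taken as lists, and none of their genes passed an adjusted p of 0.05 (limma). A list of 9 measured genes was taken for the control of sterol enzymes, some of them for reductase degradation or heme binding. Its median difference was 0.20, against 0.0001 over all probes. At an unadjusted p of 0.05 (limma) 3 of them were higher and none lower, where 6.34% and 5.13% of all probes were. UBC7, a ubiquitin-conjugating enzyme of the degradation of membrane proteins, had ratios of 0.11 and 0.17 on the low phosphate arrays against -0.43 and -0.35 on those of standard phosphate, a difference of 0.53 (SE 0.09, unadjusted p = 0.0045). Its values were as tightly grouped as those of ERG9. HRD1, the ubiquitin ligase that marks Hmg2 for degradation, was 0.34 higher (SE 0.12). DAP1, a heme-binding protein that assists Erg11, was 0.59 higher (SE 0.21), with 0.27 on low phosphate a and 0.80 on low phosphate b, and 0.33 higher without low phosphate b.

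The 14 genes for the transfer and binding of sterols had a median of 0.12. At an unadjusted p of 0.05, 6.34% of all probes were higher and 5.13% lower, and in this list 2 were higher and 1 lower. These were PRY2 (0.51, SE 0.14), which binds and exports sterol acetates, OSH7 (0.39, SE 0.13), of the oxysterol-binding family, and ARV1 (-0.34, SE 0.09, and -0.14 with median centring), a membrane protein of sterol distribution. The largest difference of the list, 0.84 for PRY1 (SE 0.34), did not pass that p. None of 5 genes for steryl ester hydrolysis and sterol acetylation (median -0.21) and none of 8 genes of other isoprenoid branches (median -0.02) passed an unadjusted p of 0.05. Among 13 measured genes known to be regulated by oxygen, the median was -0.02, with 6 higher and 7 lower means. The mannoprotein gene TIR2 (0.55, SE 0.18) and HEM13 (0.38, SE 0.11), an oxygen-requiring enzyme of heme synthesis, were higher at an unadjusted p of 0.05. Of all probes 6.34% were. The largest differences of this list, those of CYC7 (1.54, SE 0.72) and COX5B (1.06, SE 0.39), were over 1.7-fold but did not pass that p. The mannoprotein genes of that list did not share a sign, since TIR4 had a difference of -0.09 with both low phosphate arrays below both standard phosphate arrays. The 9 genes for heme synthesis or under heme control had a median of 0.22. CYT1 (1.03, SE 0.29) and CYC1 (0.52, SE 0.18), both cytochromes of respiration, were higher at an unadjusted p of 0.05, where 6.34% of all probes were. CYT1 passed that p together with 1.7-fold, as 3.07% of all probes did. It lay 0.71 and 1.36 above the standard phosphate mean on low phosphate a and b. With print-tip loess the unadjusted p of CYC1 was 0.078 (limma).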

How the data were processed

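The deposited scanner files hold the mean and background intensity of every spot in both channels, read by the authors with a scanner and image software and not normalized. Of the 15552 spots of an array, 12776 belong to gene probes, 2 to each of the 6388 probes. The number of arrays, 2 per group, limits the precision of every value. The deposited series table of log2 ratios, which the authors made by print-tip loess without background subtraction and with a correction for dye bias, was used as an alternative. Its sign was that of sample over reference throughout. Per the labels, limma 2.12.0 was among the tools of the submitters. A deposited final table of the authors' own log2 values and p-values was not used, and the number of per-sample columns left unused was 0.

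Background was corrected with normexp (offset 50) and each array was loess-normalized through its gene spots, control spots having no weight (limma 3.58.1, R 4.3.3). Ratios of the a arrays were turned, both spots of a probe were averaged, and lmFit and eBayes estimated a mean for each group from all 4 arrays (2 residual and 1.98 prior degrees of freedom). Tests were two-sided. Their p-values were adjusted by Benjamini-Hochberg across all 6388 probes, and the threshold was 0.05. A spot counted as above background at 2 SDs over it. The fit was tested on simulated data in which all arrays had the same spread and planted changes exceeded those of the sterol genes. That test does not show how the fit performs with unequal spread or with differences as small as these. The alternatives were other background corrections and normalizations, other filters, probe averaging and moderation, the deposited ratios, the replicate letter as a block and the removal of each array.

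Groups, letters and dyes came from the labels. The submitters describe independent cultures, while the study's methods describe biological replicates with a dye swap of each. In case arrays a and b came from 1 culture, the p-values measure technical spread only. Values on every array were to be given for genes past an unadjusted p of 0.05, for the highest and lowest difference of each list and for paralogs, and other lists were named by genes past that p, up to the 4 with the largest differences. Further genes were named after their values were seen. The sterol genes, the lists and the tests were chosen with earlier results of these data known. A planned search of promoters for motifs was not run, since no promoter sequences were used here.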

Additional observations from a re-analysis of the deposited data

How the results depend on the processing

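The median differences stayed above 0 in every alternative. For the mevalonate genes (0.13) the median was 0.20 with median centring, 0.10 with loess on the spike-in spots, 0.085 with the deposited log2 ratios and 0.071 to 0.12 when an array was left out. For the late genes (0.11) it was 0.14 without an offset, 0.18 with print-tip loess, 0.18 with median centring, 0.17 with scaling between arrays, 0.15 with the deposited ratios and 0.042 to 0.14 when an array was left out. The count of 4 sterol genes at an unadjusted p of 0.05 became 2 without an offset and 2 without background subtraction. Of all probes 11.47% passed that p in the main fit, 11.63% without an offset and 11.52% without background subtraction. The count was 7 with print-tip loess (11.04% of all probes) and 1 with median centring (4.43%). It was 1 with the spike-in loess (7.04%) and 10 with scaling between arrays (20.6%). The count past that p and 1.7-fold was 1 without an offset (ARE2), where 379 of all probes passed both. At the adjusted p (limma), leaving out an array gave 0 to 9 genes between the conditions, 0 to 6 for standard phosphate against the reference and 0 to 11 for low phosphate against it, and scaling gave 1 for the latter. The cause of these moves was not tested.

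Of the 34 genes, 20 kept their sign in all 15 alternatives and 14 did not. With print-tip loess the sign turned for ERG1 (0.18), ERG6 (-0.036), UPC2 (-0.011) and ROX1 (-0.0071). With median centring it turned for ARE1 (0.022) and ECM22 (0.011), and with scaling for HMG1 (0.012), ERG1 (0.0066), ERG6 (-0.032), ARE1 (0.13) and ECM22 (0.058). With the deposited ratios it turned for ERG10 (-0.040), ERG1 (0.16), UPC2 (-0.016) and ROX1 (-0.083). When an array was left out, values ran from -0.14 to 0.41 for ERG10, -0.11 to 0.35 for ERG26, -0.13 to 0.075 for ARE1, -0.053 to 0.22 for ERG27, -0.0018 to 0.18 for ERG4, -0.23 to 0.071 for ERG12, -0.032 to 0.12 for MVD1, -0.0068 to 0.060 for UPC2, -0.38 to 0.087 for HMG1, -0.21 to 0.017 for ERG7 and -0.30 to 0.066 for ECM22. The cause was not tested. Over all probes, 196 passed an unadjusted p of 0.05 and 1.7-fold, which was 379 without an offset, 298 with the spike-in loess, 334 with the replicate block and 64 to 936 when an array was left out.

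With the replicate letter as a block, which is also the dye, 4 sterol genes passed an unadjusted p of 0.05 (limma), 3 of them higher. Of all probes 15.4% passed it. None of the sterol genes passed it with 1.7-fold, and none passed the adjusted p in any comparison. The genes were not the same 4, since HMG2 (unadjusted p = 0.062) and ERG11 (unadjusted p = 0.063) no longer passed and ERG20 (unadjusted p = 0.040) and SUT1 (unadjusted p = 0.0499) did. Of the other genes named, TIR2 (unadjusted p = 0.060) and CYC1 (unadjusted p = 0.085) no longer passed. The medians stayed at 0.13 and 0.11. The letters share only a name and a dye orientation, and the differences of a minus b in both groups correlated with r = 0.28 across probes.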
